A study of Mus musculus with 24 samples.

Results

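The kidney's gene response to several hours without water was compared between male and female mice, by subtracting the female response (deprived minus watered females) from the male response (deprived minus watered males) for each gene. The members of this comparison are the autosomal genes of the deposited table of normalized counts that passed a filter on low values, 16968 of the 17592 genes tested and of 19399 genes in the table. Each library was made from part of a kidney of 1 mouse of the inbred strain C57BL/6J at 10 weeks of age, and the labels name no allele or agent beside the water regime. They came from 7 deprived males, 6 watered males, 5 deprived females and 6 watered females, where watered mice could drink freely, and every one of the 24 libraries entered the comparison. Water was withheld for 9 to 11 h and tissue was taken within 1 h of midnight, which the labels place 6 h into the animals' active period, although the hour at which they say water was removed does not match these durations in full. The title of deprived female 5 places that mouse among the deprived females while its treatment label describes free access, and it was analysed by its title.

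A difference of this kind is called an interaction. A positive value means that the male response lay above the female response, whether through a larger increase or a smaller decrease. All responses and differences below are on the log2(value + 1) scale, on which 1 unit is a doubling for well expressed genes. Vasopressin, released when water is short, raises water reabsorption in the collecting duct through the water channels Aqp2 and Aqp3, and the salty inner kidney accumulates organic osmolytes. The mouse proximal tubule is strongly dimorphic between the sexes, with androgen-dependent transporters and cytochrome P450 enzymes. In the endoplasmic reticulum, unfolded proteins switch on a set of chaperone genes through the factors ATF6 and XBP1.

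Values of the chaperone genes of that last system are described further below, and an element through which ATF6 acts, the endoplasmic reticulum stress response element, is visible in some of their promoters. It was searched as CCAAT, then 9 bases of any kind, then CCACG, on both strands of RefSeq promoters of the GRCm38.p6 build of mouse, from 250 bases before to 50 after each start. The 3 promoters shown belong to the chaperone genes that led the list and had the element, which stands in capitals, and each is written 5′ to 3′ along the gene's own strand. In Creld2 the element lies on the opposite strand, so its capitals read as the reverse complement.
Hspa5, chr2:34771840-34772139, plus strand: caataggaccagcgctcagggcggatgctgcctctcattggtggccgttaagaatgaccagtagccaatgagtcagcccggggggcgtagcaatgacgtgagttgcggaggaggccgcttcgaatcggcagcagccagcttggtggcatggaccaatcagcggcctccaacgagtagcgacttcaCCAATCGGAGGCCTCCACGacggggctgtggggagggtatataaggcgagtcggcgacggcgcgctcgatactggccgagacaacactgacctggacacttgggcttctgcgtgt
Pdia6, chr12:17266339-17266638, plus strand: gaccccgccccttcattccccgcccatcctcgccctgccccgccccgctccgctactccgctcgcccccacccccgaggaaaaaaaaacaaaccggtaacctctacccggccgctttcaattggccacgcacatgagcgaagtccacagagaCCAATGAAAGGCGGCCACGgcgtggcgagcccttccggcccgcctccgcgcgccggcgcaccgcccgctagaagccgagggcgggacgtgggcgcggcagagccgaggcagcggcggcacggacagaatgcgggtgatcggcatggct
Creld2, chr15:88819396-88819695, plus strand: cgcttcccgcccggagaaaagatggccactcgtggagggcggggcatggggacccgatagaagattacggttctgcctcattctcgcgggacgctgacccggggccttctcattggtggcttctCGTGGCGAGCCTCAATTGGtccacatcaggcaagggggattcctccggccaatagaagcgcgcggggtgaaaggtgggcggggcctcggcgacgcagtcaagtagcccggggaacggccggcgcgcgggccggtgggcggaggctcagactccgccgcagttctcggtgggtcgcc
Of the 16 genes of the unfolded protein response list, 14 had a promoter in the reference and 7 of these (50%) held the element, namely Hspa5, Pdia6, Creld2, Hsp90b1, Calr, Dnajc3 and Syvn1. Over all genes of the reference the share was 0.137%, or 37 of 27025. Hyou1 had no promoter in the reference, and other forms of the element were not searched. The list was made of known genes of this system, so its share describes the list and not these mice. A match describes letters and not a bound site.

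Depth was 14411843 to 29398960 whole reads per library, recovered from the normalized counts. In 4 libraries, those of deprived males 6 and 7, deprived female 1 and watered female 6, an unnamed gene (ENSMUSG00000119584) took more than 1% of reads, and these libraries also stood apart in several genes. Counts of called genes are therefore given without them as well. All 15 proximal tubule markers were present, with summed values of 598100 to 1324000 normalized counts per library, and of 10 adrenal markers the table held 1, Star, at 81.97 to 131.5.

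No autosomal gene passed the threshold for a different response in males and females. With limma and adjusted p-values called below 0.05, the count was 0 of 16968 (0%), the smallest adjusted p being 0.0774. At an unadjusted p below 0.05 limma gave 1218 genes (7.18%), of which 701 (4.13%) had the male response above the female response and 517 (3.05%) had it below. By sign alone, whatever the p, 8746 of the 16968 genes had a positive and 8222 a negative interaction. The quasi-likelihood test of edgeR on the recovered reads gave 0 calls as well, with 1373 genes at an unadjusted p below 0.05, whereas DESeq2 gave 30 calls (0.177%), 18 above and 12 below. Without the 4 libraries limma called 9 genes (0.053%), 7 above and 2 below, and edgeR called 10 (0.0589%). With the level of the unnamed gene as a covariate limma called 4 genes (0.0236%), and without deprived males 6 and 7 it called 6 (0.0354%). Leaving out watered male 1 gave 2 calls (0.0118%), Prlr and Cyp2c23, leaving out deprived male 6 gave 1 (0.00589%), Nr1d1, and leaving out deprived male 7 gave 3 (0.0177%), Frzb, Slc38a3 and Cyp2c23, while the other 21 such fits gave 0.

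The size of a difference that these mice could show was limited. The median standard error of the interaction was 0.17, and its 95% interval reached a median of 0.35 to either side, or 0.28 for the 12376 genes averaging 50 normalized counts or more. The median absolute interaction over all genes was 0.14. An adjusted p above the threshold does not show that the responses were alike.

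The responses from which the interaction is built were tested within each sex. Of the 16968 genes, limma called 40 (0.236%) in males, 25 higher (0.147%) and 15 lower (0.0884%), and 136 (0.802%) in females, 76 higher (0.448%) and 60 lower (0.354%). These counts were 142 in males and 726 in females without the 4 libraries. In males they were 22 without watered male 3, 25 without watered male 4 and 65 without deprived male 3. In females they were 65 without watered female 2, 84 without watered female 5, 80, 69 and 67 without deprived females 3, 4 and 5 in turn, and 212 without deprived male 7, with which females share the estimate of spread. Counting deprived female 5 as watered left 2 female calls beside 31 male calls. Which sex had more calls also turned with the covariates: there were 37 in males and 18 in females when the cortex to medulla balance, the mean level of proximal tubule markers less that of collecting duct and loop markers, was a covariate, and 38 in males and 6 in females with the level of stroma markers, an alternative chosen after seeing the data. The balance contains Aqp2 and Aqp3, which were called in both sexes, and the stroma level contains Col3a1 and Col1a2, called in females. Either covariate can therefore take up part of the response itself. Deprived and watered males did not overlap in 93 genes (0.548%), and deprived and watered females did not overlap in 427 (2.52%). No gene separated in both sexes in opposite directions, and 12 (0.0707%) separated in both in the same direction. A call in 1 sex did not bring a called difference with it: of the 40 genes called in males 18 had an interaction at an unadjusted p below 0.05, of the 136 called in females 89 did, and 0 of either passed after adjustment. Choosing genes by a call in 1 sex favours a difference from the other.

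The 20 genes that lead the interaction, 10 in each direction by the smallest p among genes with a symbol that averaged 50 normalized counts or more, combined responses of opposite sign in 18 cases. Of the 20, 2 were called in males, 15 in females, 0 in both and 3 in neither. Among all genes 0.236% were called in males and 0.802% in females. Deprived and watered males did not overlap in 2 of the 20 and deprived and watered females did not in 13. Over all genes these shares were 0.548% and 2.52%. The 20 genes were ranked on the p that is reported. Such ranking favours large estimates, opposite signs and separation within a sex, so these counts only describe the genes chosen.

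**Figure D1:**
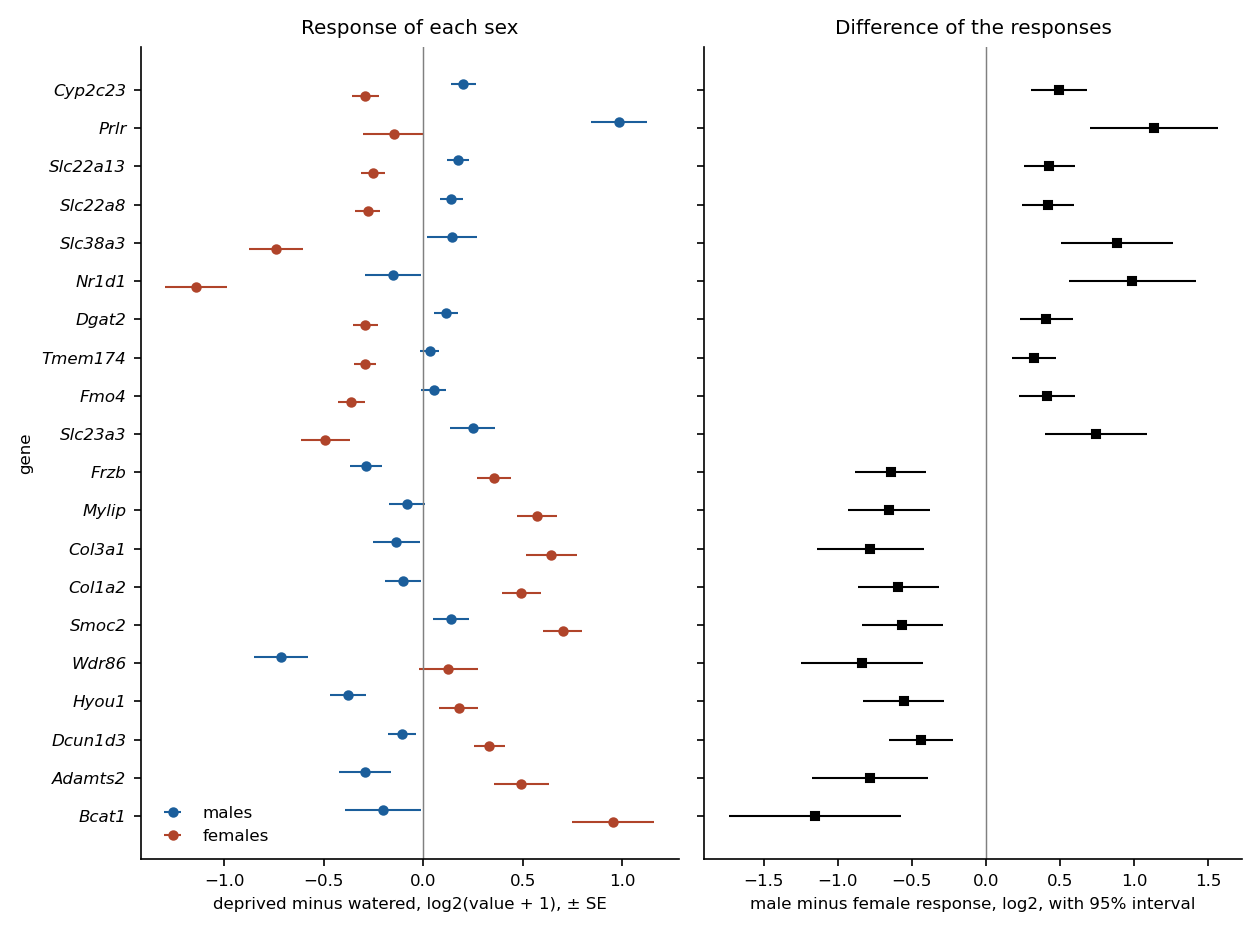
The 20 leading genes, the male response above the female response in the upper 10 and below it in the lower 10. The left panel gives deprived minus watered on the log2(value + 1) scale with its standard error in males (blue, upper point of each pair) and females (red, lower point), and the right panel the male minus female response with its 95% interval, all of which exclude 0 before adjustment and none of which passed after it.

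Cyp2c23, a cytochrome P450 of the kidney that makes epoxyeicosatrienoic acids from arachidonic acid (chromosome 19, 44005022 to 44029208, minus strand, GRCm38, named Cyp2c44 in the deposited table), had an interaction of 0.49. In males its lowest, median and highest values were 553.1, 611.3 and 669.3 normalized counts without water, against 458.5, 538.1 and 604.3 with water. In females they were 1007, 979, 981.7, 1076 and 922.9 in the 5 deprived mice, against a lowest of 1121, a median of 1227 and a highest of 1297 in watered mice. Deprived males overlapped watered males while lying higher in the median, and all deprived females lay below all watered females. The male response was 0.20 ± 0.06 (SE, limma adjusted p = 0.185) and the female response -0.29 ± 0.07 (SE, limma adjusted p = 0.0319), a female call that held in 17 of the 24 fits without 1 library. Their difference had a 95% interval of 0.31 to 0.68 (limma adjusted p = 0.0774). It was 0.51 without the 4 libraries (limma adjusted p = 0.0291) and kept between 0.45 and 0.53 in the fits without 1 library. Close relatives in the Cyp2c family can share reads with it, which makes its level uncertain.

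Prlr, the prolactin receptor (chromosome 15, 10177238 to 10349180, plus strand), rose in males, and its interaction of 1.13 was the most positive of the leading genes. Its values ran from 484.9 through a median of 678.4 to 802.8 in deprived males, against 237.8, 313.4 and 530.8 in watered males. Deprived females had 5032, 4861, 4766, 4626 and 5800, against 4923, 5550 and 6296 as the lowest, median and highest in watered females. The male groups overlapped through 1 watered mouse, number 1, that stood above deprived males 2 and 6, and the female groups overlapped broadly at a level several-fold above the males. The male response was 0.98 ± 0.14 (SE, limma adjusted p = 0.00101), called in all 24 fits without 1 library, and the female response -0.15 ± 0.15 (SE, limma adjusted p = 0.884). The 95% interval of the difference was 0.70 to 1.56 (limma adjusted p = 0.0774), and the difference was 1.11 without the 4 libraries (limma adjusted p = 0.15) and 1.04 to 1.27 in the fits without 1 library.

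Nr1d1, which encodes the clock repressor REV-ERB alpha (chromosome 11, 98767932 to 98775333, minus strand), fell in females. Deprived males had a lowest value of 145.2, a median of 239.6 and a highest of 336.3, against 205.4, 253.8 and 314.4 in watered males. The 5 deprived females had 138.3, 180.1, 133.6, 154.5 and 133.5, against 298.7, 323.3 and 357.3 as the lowest, median and highest of watered females. Every deprived female thus lay below every watered female, and the deprived males spanned the whole range of the watered ones. The male response was -0.15 ± 0.14 (SE, limma adjusted p = 0.632) and the female response -1.14 ± 0.15 (SE, limma adjusted p = 0.0006). The interaction was 0.99, with a 95% interval of 0.56 to 1.42 (limma adjusted p = 0.135), and 1.03 without the 4 libraries (limma adjusted p = 0.0484).

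Frzb, a secreted antagonist of Wnt signals (chromosome 2, 80411970 to 80447625, minus strand), had an interaction of -0.64. Deprived males had 530.2, 682 and 744.1 as their lowest, median and highest values, against 703.9, 801.3 and 950.9 in watered males. Deprived females had 238.2, 201.8, 230.6, 203.4 and 249.2, against 163.6, 171.4 and 197.1 in watered females. The male groups overlapped while the deprived ones lay lower, and all deprived females lay above all watered ones. The male response was -0.29 ± 0.08 (SE, limma adjusted p = 0.131) and the female response 0.35 ± 0.09 (SE, limma adjusted p = 0.0451), and the female call held in 7 of the 24 fits without 1 library. Their difference had a 95% interval of -0.88 to -0.40 (limma adjusted p = 0.0774) and -0.53 without the 4 libraries (limma adjusted p = 0.0484).

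**Figure D2:**
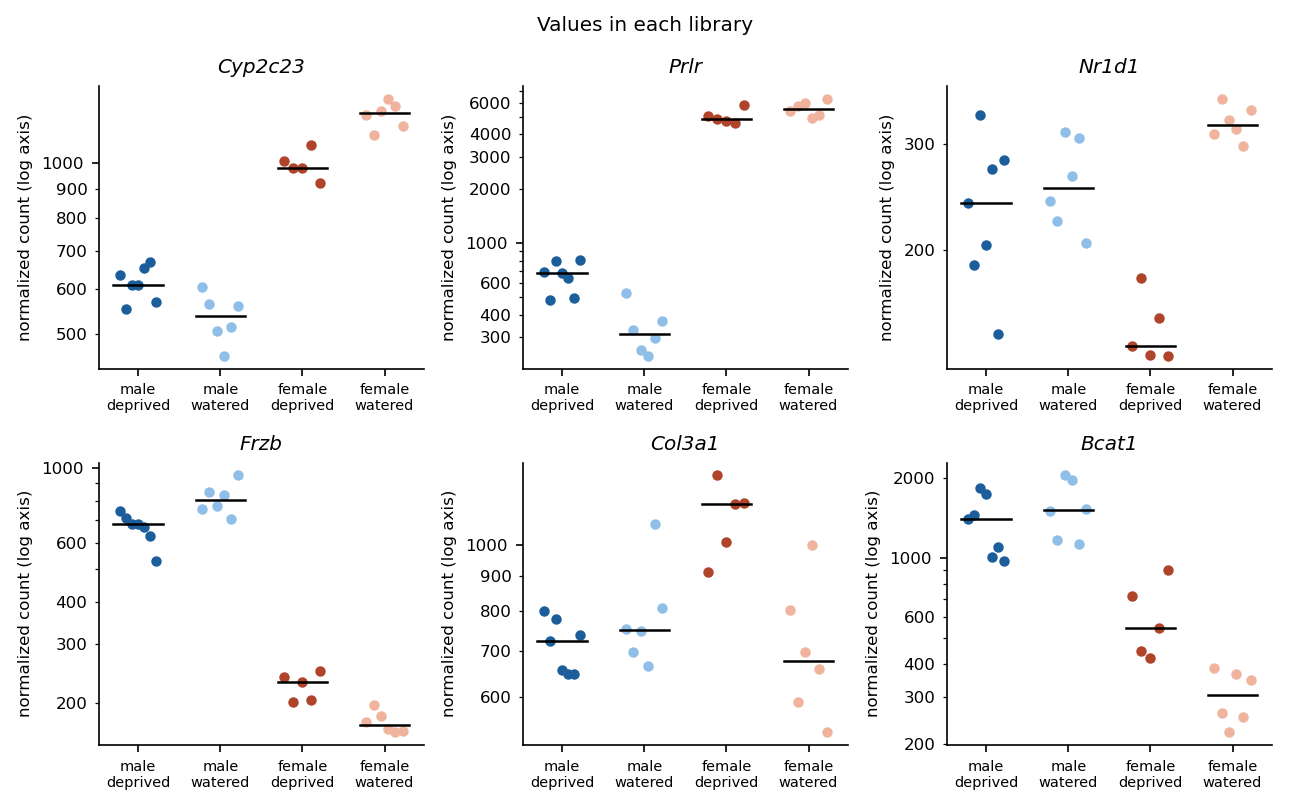
Normalized counts (log axis) in each library for 6 leading genes, by group, with the group median as a bar. Cyp2c23, Nr1d1, Frzb and Bcat1 separate deprived from watered females without overlap, no gene shown separates the males, and the levels of Prlr, Frzb and Bcat1 differ more between the sexes than between water groups.

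Among the leading genes were 3 transporters found in the tubule, Slc22a8, Slc22a13 and Slc38a3. Slc22a8, the organic anion transporter OAT3 of the basolateral membrane, had a male response of 0.14 and fell by 0.28 in females (limma adjusted p = 0.356 and 0.0281), an interaction of 0.42 with a 95% interval of 0.24 to 0.59. Its relative Slc22a13, another organic anion transporter, had 0.18 in males and fell by 0.25 in females (limma adjusted p = 0.217 and 0.0461), an interaction of 0.43 (0.26 to 0.60), and limma called this interaction without the 4 libraries, at 0.33 (limma adjusted p = 0.0484). The female call held in 16 of the 24 fits without 1 library for Slc22a8 and in 6 for Slc22a13.

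Slc38a3, which carries glutamine into the tubule cell for ammonia production (chromosome 9, 107650634 to 107669530, minus strand), was at 1001, 1211 and 2071 (lowest, median and highest) in deprived males, against 938.5, 1138 and 1307 in watered males. Its values were 988.8, 1245, 1260, 1091 and 925 in deprived females, against 1571, 1878 and 2101 in watered females. The highest of the deprived males was male 7, 1 of the 4 libraries that stand apart, and the female groups did not overlap. Slc38a3 had 0.14 in males and fell by 0.74 in females (limma adjusted p = 0.61 and 0.0079), an interaction of 0.89 (0.51 to 1.26), or 0.68 without the 4 libraries.

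The other leading genes with the male response above the female response were Dgat2, Fmo4, Tmem174 and Slc23a3. Dgat2, which makes triglycerides, had 0.12 in males and fell by 0.29 in females (limma adjusted p = 0.443 and 0.0234), an interaction of 0.41 (0.23 to 0.59), and its female call held in 18 of the 24 fits without 1 library. Fmo4, a flavin-containing monooxygenase, had 0.05 in males and fell by 0.36 in females (limma adjusted p = 0.709 and 0.0095), an interaction of 0.41 (0.22 to 0.60). Tmem174, a membrane protein of the proximal tubule, had 0.03 in males and fell by 0.29 in females (limma adjusted p = 0.772 and 0.0079), an interaction of 0.33 (0.18 to 0.47). Slc23a3, an orphan member of the ascorbate transporter family, passed in neither sex, with 0.25 in males and -0.49 in females (limma adjusted p = 0.401 and 0.0543) and an interaction of 0.74 (0.40 to 1.09).

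Of the 10 leading genes with the male response below the female response, Col3a1, Col1a2, Smoc2 and Adamts2 encode matrix proteins or a matrix enzyme, and none of their interactions passed. Col3a1, a fibrillar collagen (chromosome 1, 45311538 to 45349706, plus strand), was at 647.2, 723.7 and 801.7 (lowest, median and highest) in deprived males, against 664.4, 751.4 and 1072 in watered males. It was at 914.5, 1265, 1012, 1150 and 1152 in deprived females, against 532.1, 677.2 and 1001 in watered females. The male groups overlapped throughout, and a single watered female stood above the lowest deprived one. Col3a1 had -0.14 in males and rose by 0.65 in females (limma adjusted p = 0.616 and 0.014), with an interaction of -0.78 and a 95% interval of -1.14 to -0.42. Col1a2, another fibrillar collagen, had -0.10 in males and rose by 0.49 in females (limma adjusted p = 0.627 and 0.0139), an interaction of -0.59 (-0.87 to -0.32). Smoc2, a calcium-binding matrix protein, had 0.14 in males and rose by 0.70 in females (limma adjusted p = 0.525 and 0.0007), an interaction of -0.56 (-0.84 to -0.29). Adamts2, which trims procollagen, was called in neither sex and had an interaction of -0.79 (-1.18 to -0.39).

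Levels of stromal markers differed between the groups as well. All 10 stroma and smooth muscle markers were tested and none was at 0 in any library, and 4 of them, among them Col3a1 and Col1a2 themselves, had an interaction at an unadjusted p below 0.05, all 4 below 0, against 3.05% of all genes. Their summed values were 5696 to 6978 in deprived males, against 6109 to 7980 in watered males, and 7280 to 9522 in deprived females, against 5394 to 7594 in watered females. The median interaction of the list was -0.30, against 0.01 over all autosomal genes. With the mean level of these markers as a covariate, an alternative added after the data were seen and one that contains the genes it adjusts, the interaction was -0.22 for Col3a1 and -0.14 for Col1a2, while that of Frzb was -0.76. In bulk tissue, fewer or more cells of a type and less or more RNA per cell cannot be told apart. The part of stromal content in these results was not tested beyond that covariate.

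Of 15 markers of the proximal tubule, none at 0 in any library, 9 had a positive and 6 a negative interaction and 0 were called. At an unadjusted p below 0.05 there were 5, all above 0 and among them Slc22a8, Slc22a6, Slc27a2 and Slc13a3, against 4.13% of all genes. The other 10 included Lrp2 and Slc34a1, which define the cell type, at -0.16 (-0.59 to 0.26) and 0.11 (-0.07 to 0.29). The median of the list was 0.04. Summed values were 952700 to 1324000 in deprived males and 899700 to 1056000 in watered males, and 602700 to 628300 in deprived females and 598100 to 679500 in watered females. With the cortex to medulla balance, which contains these markers, as a covariate, the interaction was 0.39 for Slc22a8, 0.41 for Slc22a13 and 0.88 for Slc38a3.

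**Figure D3:**
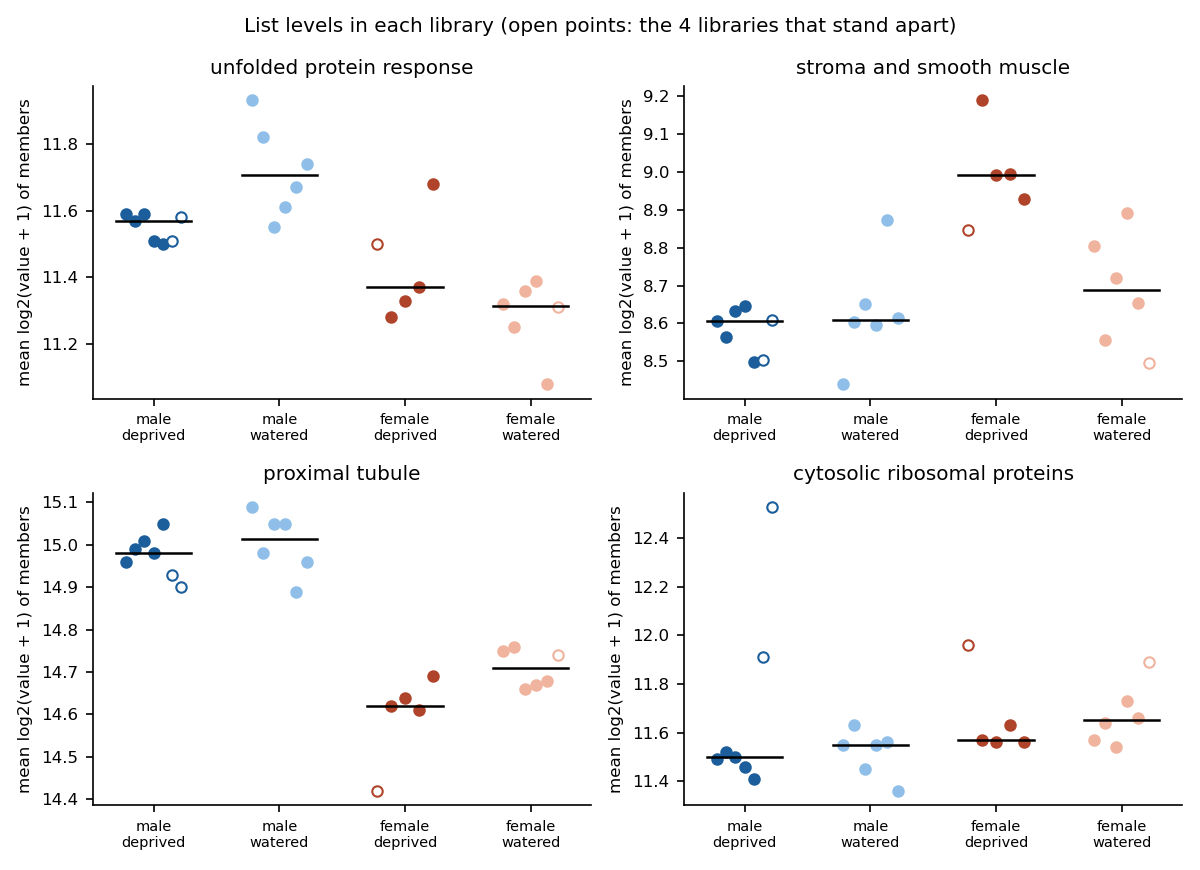
Mean log2(value + 1) of the members of 4 lists in each library, by group, with the group median as a bar and the 4 libraries that stand apart as open points. Stroma markers are highest in deprived females, the unfolded protein response list has a lower median in deprived than in watered males, and the ribosomal protein list is highest in the open points of each group that has any.

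Of the 16 genes of the unfolded protein response list 15 had a negative interaction, and 10 had one at an unadjusted p below 0.05, all negative, against 3.05% of all genes. By sign, 15 of 16 were lower in deprived males and 14 of 16 were higher in deprived females, while 0 passed in either sex. The mean log2 level of the list was 11.59, 11.57, 11.59, 11.51, 11.5, 11.51 and 11.58 in deprived males 1 to 7, against 11.55 to 11.93 in watered males. It was 11.5, 11.28, 11.33, 11.37 and 11.68 in deprived females 1 to 5, against 11.08 to 11.39 in watered females. Deprived females 1 and 5 thus lay above all watered females, and the other 3 lay within their range. The median interaction was -0.31, from a median of -0.15 in males and 0.13 in females, and it ranged from -0.36 to -0.24 over the fits without 1 library. It was -0.30 without the 4 libraries and -0.18 with deprived female 5 counted as watered. List members share regulators and are not independent of each other.

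Hspa5, the main chaperone of the endoplasmic reticulum (chromosome 2, 34771970 to 34777547, plus strand), had an interaction of -0.63 with a 95% interval of -0.97 to -0.29 (limma adjusted p = 0.251). Deprived males had 11500, 14870 and 16150 as their lowest, median and highest values, against 15590, 18880 and 22080 in watered males. Deprived females had 15100, 11400, 11390, 11160 and 15990, against 8475, 11450 and 12950 in watered females. Of the 7 deprived males 4 lay below all watered males, and deprived females 1 and 5 lay above all watered females while the other 3 fell within their range. The male response was -0.40 ± 0.11 (SE, limma adjusted p = 0.134) and the female response 0.23 ± 0.12 (SE, limma adjusted p = 0.596). Deprived female 1 is among the 4 libraries that stand apart and deprived female 5 is the mouse with conflicting labels. The interaction was -0.44 without the 4 libraries and -0.47 with deprived female 5 counted as watered.

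Hyou1, another chaperone of that compartment (chromosome 9, 44379490 to 44392369, plus strand), had an interaction of -0.56 (-0.83 to -0.28), and its deprived males, at 2991 to 3972, lay wholly below its watered males, at 4095 to 5518. Pdia6, a disulphide isomerase, had -0.48 (-0.73 to -0.23) and Creld2, also a disulphide isomerase, -0.51 (-0.81 to -0.22), with deprived males of 821 to 1028 wholly below watered males of 1030 to 1506. Sdf2l1, a luminal partner of the chaperones, had -0.69 (-1.19 to -0.19), and the HSP90 family member Hsp90b1 had -0.37 (-0.63 to -0.12). Xbp1, 1 of the factors, had -0.15 (-0.41 to 0.12), and Herpud1, a component of the degradation machinery, was the exception at 0.11 (-0.18 to 0.39).

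Of 16 heat shock genes 13 had a negative interaction, and the list median was -0.21. At an unadjusted p below 0.05 there were 6, all negative, against 3.05% of all genes. Dnaja1, a co-chaperone of HSP70, was the member called in 1 sex: it fell by 0.30 in males (limma adjusted p = 0.01) and had -0.04 in females (limma adjusted p = 0.957). Its values ran from 7993 to 10260 in deprived males, against 11210 to 12370 in watered males, without overlap. The HSP110 genes Hsph1 and Hspa4l had interactions of -0.56 (-0.90 to -0.22) and -0.47 (-0.73 to -0.21). The constitutive chaperone Hspa8 and the regulator Hsf1 were near 0, at 0.04 (-0.20 to 0.28) and 0.002 (-0.18 to 0.18).

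**Figure D4:**
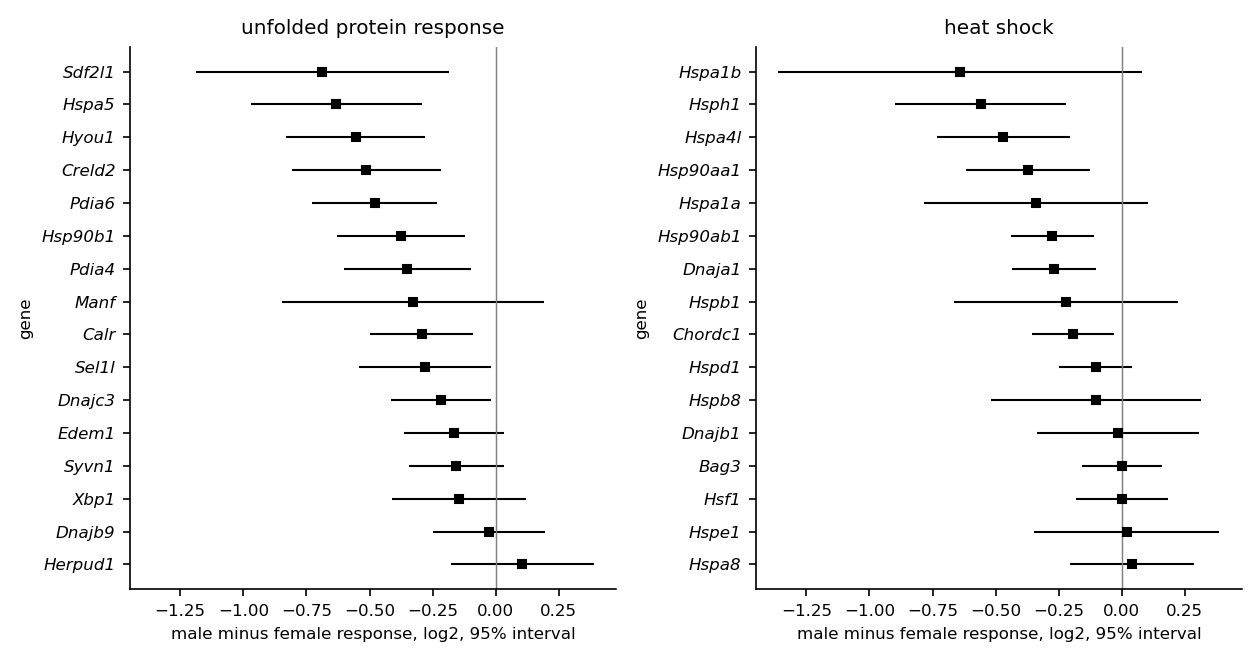
Male minus female response with its 95% interval for each member of the unfolded protein response list (left) and the heat shock list (right), on the log2 scale. All but 1 of the 16 members on the left lie below 0, and 13 of 16 on the right do.

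The other leading genes with the male response below the female response were Mylip, Dcun1d3, Wdr86 and Bcat1. Mylip, the ubiquitin ligase that degrades the LDL receptor, had -0.08 in males and rose by 0.57 in females (limma adjusted p = 0.692 and 0.006), an interaction of -0.65 (-0.93 to -0.38). Dcun1d3, a neddylation factor, had -0.11 in males and rose by 0.33 in females (limma adjusted p = 0.533 and 0.0345), an interaction of -0.44 (-0.65 to -0.22), with the female call held in 15 of the 24 fits without 1 library. Wdr86, a WD repeat protein, fell in males: deprived males at 41.37 to 60.62 lay wholly below watered males at 65.88 to 108.1. The decrease in males was called, the response being -0.71 in males and 0.13 in females (limma adjusted p = 0.0148 and 0.908), an interaction of -0.84 (-1.25 to -0.43), and the male call was lost without watered male 4. Bcat1, the cytosolic branched-chain aminotransferase (chromosome 6, 144993835 to 145076184, minus strand), was at 974.6, 1393 and 1827 in deprived males, against 1130, 1512 and 2039 in watered males. It was at 716, 446.4, 418.6, 547 and 896.2 in deprived females, against 221.3, 304.7 and 384.4 in watered females. All deprived females thus lay above all watered females while the male groups overlapped throughout. Bcat1 had -0.20 in males and rose by 0.95 in females (limma adjusted p = 0.644 and 0.0233), and the interaction of -1.16 (-1.74 to -0.57) was the most negative of the leading genes. Its female call held in 18 of the 24 fits without 1 library and was lost without the 4 libraries (limma adjusted p = 0.0505).

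Of 31 members of the fatty acid oxidation and PPARA target list 28 had a positive interaction, and 9 had one at an unadjusted p below 0.05, all positive, against 4.13% of all genes. In females 1 member was called lower and in males 0 were called, against 0.354% called lower in females and 0.236% called in males over all genes. The median was 0.28, from 0.05 in males and -0.19 in females, and it was 0.18 without the 4 libraries, or 0.18 without deprived male 7 alone. Acaa1b, a peroxisomal thiolase, had an interaction of 0.54 (0.19 to 0.89), Vnn1, a pantetheinase, 0.46 (0.14 to 0.78) and Cyp4a31, a fatty acid hydroxylase, 0.42 (0.14 to 0.70). Cyp4a12b had 1.02 (0.34 to 1.70), with deprived females at 40.99 to 52.76 wholly below watered females at 60.23 to 118.9 while deprived male 7 reached 666.5 and watered male 5 reached 591.1. Reads of the Cyp4a genes can be split between close paralogs, so their values are uncertain. The factor Ppara itself had -0.11 (-0.98 to 0.76).

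Targets of the oxidative stress factor NRF2 had 16 of 22 positive interactions, 6 positive and 1 negative at an unadjusted p below 0.05, against 4.13% and 3.05% of all genes. Nqo1, a quinone reductase, had 0.03 in males and fell by 0.50 in females (limma adjusted p = 0.892 and 0.0149), an interaction of 0.53 (0.25 to 0.82), and its female call was lost without deprived female 5. Its highest deprived male, number 7, was at 1633, against 896.9 for the lowest. The glutathione transferases Gstm1 and Gsta2 had 0.39 (0.09 to 0.70) and 0.58 (0.11 to 1.06), and Gclc, which starts glutathione synthesis, was the negative one at -0.47. Gsta2 had a median of 2213 in deprived males, where male 7 reached 4887, against a median of 1973 in watered males. Gstm1 had a median of 8105 and a highest of 13060 in deprived males, against a median of 7697 in watered males. The list median was 0.10.

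Genes known for a sex-biased level in the kidney did not share 1 direction. Of 39 tested, 23 had a positive and 16 a negative interaction, 7 and 1 at an unadjusted p below 0.05, against 4.13% and 3.05% of all genes, and the median was 0.06, or -0.07 with the stroma covariate. Cyp2d9, a male-biased P450, had an interaction of 0.86 (0.46 to 1.27): it had 0.24 in males and fell by 0.62 in females (limma adjusted p = 0.472 and 0.034), a female call that held in 17 of the 24 fits without 1 library. Slc22a6, the organic anion transporter OAT1, had -0.05 in males and fell by 0.46 in females (limma adjusted p = 0.773 and 0.0107), an interaction of 0.41 (0.16 to 0.66). Both are uncertain where close paralogs share reads, as in the Cyp2d family.

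The interaction also says how far apart the sexes stood with and without water. Levels differed between males and females in 5644 genes (33.3%) of deprived mice and 5192 (30.6%) of watered mice (limma, adjusted p below 0.05). With the cortex to medulla balance as a covariate these counts were 553 in deprived and 759 in watered mice. They were 1715 and 5105 with the stroma level. The balance contains the proximal tubule markers, whose summed values were at least 899700 in males and at most 679500 in females. In deprived mice the stroma markers summed to at most 6978 in males and at least 7280 in females. Both covariates can therefore carry part of the difference between the sexes, and the lower counts do not show how much tissue content contributed. The covariates are built from means on the log2 scale, so the sums, led by the most abundant members, describe them only in part. Among the 20 leading genes the gap was narrower in deprived mice in 11 and wider in 9, and it had opposite signs in 6. The male minus female difference of Prlr was -2.96 in deprived and -4.09 in watered mice on the log2 scale. Frzb was higher in males by 1.56 in deprived and 2.20 in watered mice, and Bcat1 by 1.18 and 2.34. Nr1d1 was higher in males by 0.65 in deprived mice (limma adjusted p = 0.0013) and had -0.34 in watered mice (limma adjusted p = 0.0793). Both gaps share libraries with the interaction and give no further evidence for it.

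**Figure D5:**
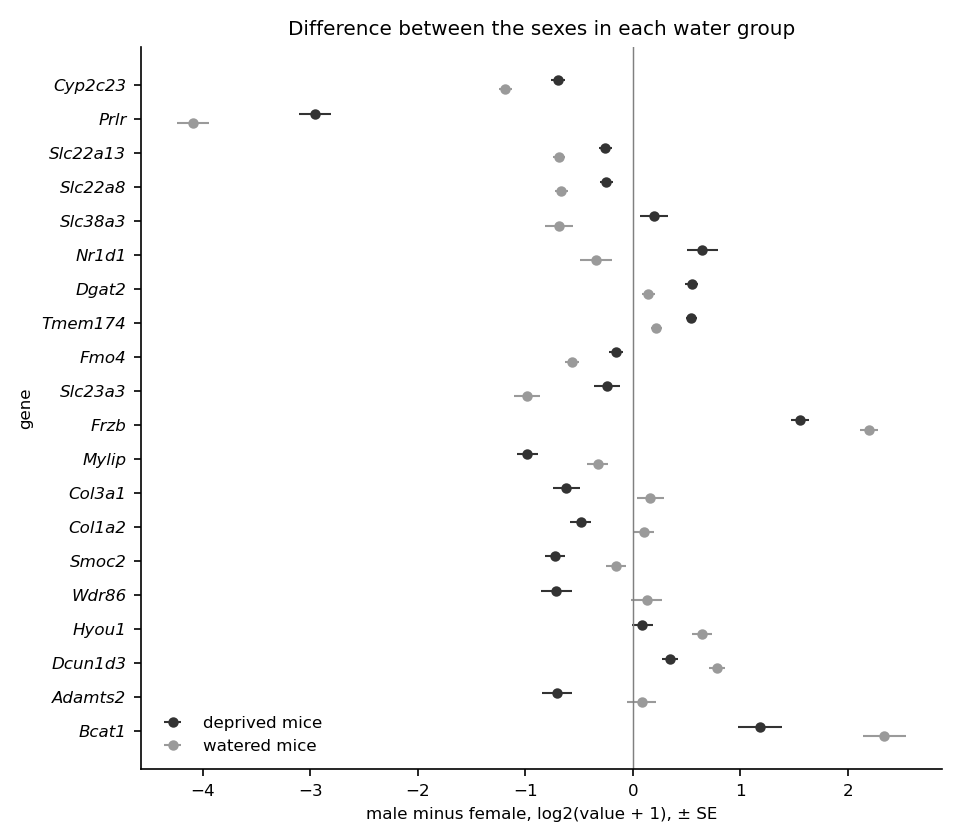
Male minus female level with its standard error for the 20 leading genes, in deprived mice (dark, upper point of each pair) and watered mice (grey, lower point), on the log2(value + 1) scale. The distance between the points of a pair is the interaction: the gap is narrower in deprived mice for Prlr, Frzb and Bcat1, and wider for Mylip and Col3a1.

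Aqp2 and Aqp3, water channels of the collecting duct, rose in both sexes. Among 8 principal cell markers tested, these 2 were the ones called higher in each sex. Of all genes 0.147% were called higher in males and 0.448% in females. Aqp2 rose by 0.92 ± 0.11 in males and 0.74 ± 0.12 in females (SE, limma adjusted p = 5.2e-05 and 0.004), an interaction of 0.18 with a 95% interval of -0.16 to 0.52. Deprived males had 11070, 12320 and 17450 (lowest, median and highest), against 6028, 6986 and 7937 in watered males. Deprived females had 15350, 14500, 13160, 15980 and 12720, against 6166, 8728 and 11260 in watered females. Deprived and watered mice did not overlap in either sex. Aqp3, the channel through which this water leaves the cell, rose by 0.67 in males and 0.42 in females (limma adjusted p = 2e-06 and 0.006), an interaction of 0.25 (0.05 to 0.46, limma adjusted p = 0.579). Of 13 genes for water channels, vasopressin signalling and urea transport 2 were positive and 1 negative at an unadjusted p below 0.05. The shares over all genes were 4.13% and 3.05%. The median of the 13 was -0.02, and Aqp11, an intracellular aquaporin, was the other positive one at 0.24 (0.05 to 0.44).

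Osmolyte genes had a median of -0.22 over 15 members, 1 positive and 1 negative at an unadjusted p below 0.05, against 4.13% and 3.05% of all genes. Slc6a12, the betaine transporter, had 0.47 in males and rose by 0.79 in females (limma adjusted p = 0.131 and 0.0073), an interaction of -0.32 (-0.72 to 0.07). Slc5a3, the myo-inositol transporter, had -0.08 (-0.32 to 0.17). The interval of Akr1b3, aldose reductase, was wide, at -0.71 (-1.62 to 0.20). The list median was -0.05 with the stroma covariate.

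Of 21 clock genes, Nr1d1 among them, 4 were positive and 2 negative at an unadjusted p below 0.05, against 4.13% and 3.05% of all genes, with a median of 0.04. Per3, a period gene, fell by 0.58 in each sex (limma adjusted p = 0.012 in males and 0.014 in females), and its interaction of 0.01 had a 95% interval of -0.32 to 0.33. Cry2, a repressor of the clock, fell by 0.40 in males and had 0.02 in females (limma adjusted p = 0.0443 and 0.99), an interaction of -0.42 (-0.68 to -0.15), while its paralog Cry1 had 0.03 in males and rose by 0.37 in females (limma adjusted p = 0.879 and 0.046), an interaction of -0.34 (-0.59 to -0.09). Each of the Cry calls held in 6 of the 24 fits without 1 library. The output factor Dbp and the repressor Nr1d2 had -0.37 and -0.34 in males and fell by 0.79 and 0.60 in females, with interactions of 0.42 (0.005 to 0.83) and 0.27 (0.005 to 0.53).

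The 4 inhibitors of differentiation, which bone morphogenetic proteins induce, had positive interactions, none of which passed. Id1 had -0.04 in males and fell by 0.92 in females (limma adjusted p = 0.925 and 0.0226), an interaction of 0.87 (0.32 to 1.43), with the female call held in 18 of the 24 fits without 1 library. Id4 had -0.14 in males and fell by 0.64 in females (limma adjusted p = 0.528 and 0.004), an interaction of 0.49 (0.20 to 0.79) that limma called without the 4 libraries, at 0.47 (limma adjusted p = 0.0197). Id2 and Id3 had 0.45 (0.09 to 0.80) and 0.50 (0.02 to 0.99). Grem1, a secreted antagonist of these proteins, rose in both sexes, by 3.22 in males and 2.47 in females (limma adjusted p = 3.6e-05 and 0.004), an interaction of 0.76 (-0.39 to 1.91) at a low level. It had 20.61 to 64.5 normalized counts in deprived males, against 1.00 to 11.13 in watered males, and 20.49 to 37.69 in deprived females, against 0.995 to 7.464 in watered females. Of 23 genes of this pathway 6 were positive and 1 negative at an unadjusted p below 0.05, against 4.13% and 3.05% of all genes, and the median was 0.05.

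Pappa, which cleaves carriers of insulin-like growth factors, and Gem, a small GTPase, gave differences within their intervals. Pappa rose by 1.17 in males and 0.88 in females (limma adjusted p = 0.0023 and 0.0319), an interaction of 0.29 (-0.27 to 0.85), and its female call held in 15 of the 24 fits without 1 library. Gem had 0.83 in males and rose by 1.44 in females (limma adjusted p = 0.155 and 0.0079), an interaction of -0.61 (-1.34 to 0.12).

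Genes of amino acid stress, the cell cycle and RNA production completed the lists. Mthfd2, a mitochondrial folate enzyme, had 0.11 in males and rose by 0.74 in females (limma adjusted p = 0.749 and 0.0237), an interaction of -0.63 (-1.09 to -0.17), and the female call held in 19 of the 24 fits without 1 library. At an unadjusted p below 0.05 its list of 23 amino acid stress genes had 0 positive and 2 negative members. The shares over all genes were 4.13% and 3.05%, and the list median was -0.02. Spag5, a spindle protein, had 0.50 in males and rose by 0.93 in females (limma adjusted p = 0.0722 and 0.0006), an interaction of -0.43 (-0.78 to -0.07). Of 28 cell cycle genes 26 had a negative interaction, with a list median of -0.13. At an unadjusted p below 0.05, 2 were negative and 1 was positive, against 3.05% and 4.13% of all genes. The 20 corticosteroid response genes had a median of 0.23, which was 0.01 without the 4 libraries.

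Ribosomal protein genes had a positive interaction in 73 of 74 members and nuclear genes of the respiratory chain in 74 of 78, with medians of 0.20 and 0.18. At an unadjusted p below 0.05 these lists had 0 and 1 members, against 7.18% of all genes. The mean log2 level of the ribosomal list was 12.53 in deprived male 7, 11.91 in deprived male 6, 11.96 in deprived female 1 and 11.89 in watered female 6, all above the other 20 libraries at 11.36 to 11.73. Without these 4 libraries the medians were 0.01 for the ribosomal list and -0.003 for the respiratory chain list. Over all genes the median was 0.01 in the fit with all 24 libraries. The cause of the shift in both list medians was not tested.

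The remaining lists are given by their medians. Cholesterol synthesis genes (21) had a median of -0.01, immediate early genes (22) -0.01, sodium transport genes (26) -0.02, sex hormone and growth hormone signalling genes (26) -0.04 and renin-angiotensin and prostaglandin genes (17) -0.01. Among cell type markers, medians were -0.02 for the thin limb and loop, -0.23 for the distal convoluted tubule, 0.19 for principal cells, -0.04 for intercalated cells, -0.11 for podocytes, -0.14 for endothelium, -0.07 for macrophages and leukocytes, -0.30 for lymphocytes, 0.06 for erythroid cells, -0.17 for perirenal fat and -0.04 for injury genes. With the stroma level as a covariate the medians were 0.0959 for the distal convoluted tubule, 0.0627 for endothelium, 0.0022 for podocytes and 0.094 for sodium transport. That of perirenal fat was 1.945, with 4 of its 9 markers at 0 in at least 1 library. Among genes averaging 50 normalized counts or more the median of lymphocytes was -1.04. The 11 lymphocyte markers summed to only 184.4 to 846.6 normalized counts per library, and that median rests on part of the list. No member of any list had a called interaction.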

How the data were processed

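Polyadenylated RNA of 24 kidneys was sequenced, 1 library per mouse. The authors deposited 1 table of normalized counts, a signal scaled per library; the submitters' processing notes name Trim Galore, Subread featureCounts, DESeq2 and the mm10 build without versions. Strand use in counting is not given in the sources used here. Multiples of 1 read in each column gave whole reads for 100% of values within 0.01 read, so depth was known.

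Responses were fitted on log2(value + 1) with limma 3.58.1 in R 4.3.3, with 1 coefficient for each of the 4 groups and a trended, robust prior variance, over the 17592 genes that reached 10 normalized counts in 5 or more libraries. Benjamini-Hochberg adjustment ran over all tested genes before the autosomal rows were taken, with calls below 0.05. The quasi-likelihood test of edgeR 4.0.16 with TMM and DESeq2 1.42.0, both on the recovered whole reads, were alternatives, among 43 settings, 24 of which left out 1 library. Fits were tested on simulated data. Gene symbols and GRCm38 positions came from GENCODE M21, and promoters from RefSeq.

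Genes were named by rule: 10 in each direction with the smallest interaction p, a symbol and a mean of at least 50, up to 4 members of each list by p, and 10 set genes. Other list members were named after their values were seen. The members and lists were chosen with earlier results of these data known. A few genes of the rule are left out of the text. Because each library is a separate mouse, p-values measure the spread between mice. Replicate numbers of the titles gave no sign of pairing the libraries and were not used in the main fit.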

Additional observations from a re-analysis of the deposited data

Results flagged for a closer look

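Among 300 groups of values looked at, 24 had a highest or lowest library far from the nearest other one, and chance flags about 1 group in 20. Deprived male 7 was the one set apart in 6 of these, deprived female 1 and watered male 5 in 4 each, and deprived male 6 and deprived female 5 in 2 each; the part of library quality in them was not tested. Values are normalized counts.

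Deprived male 7 was the highest of its group for Slc38a3 (2071), Id1 (680.3), Cyp4a12b (666.5), Nqo1 (1633), Gsta2 (4887) and Ptges2 (1506). Deprived male 6 was the lowest for Dnaja1 (7993) and the highest for Itgam (35.18). Deprived female 1 was the highest for Id4 (1382) and Id2 (4990) and the lowest for Pappa (284.3) and Col1a1 (517.4). Deprived female 5 was the highest for Smoc2 (445) and the lowest for Slc27a2 (59890).

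Watered male 5 was the highest of its group for Col3a1 (1072), Col1a2 (1882) and Cyp4a12b (591.1) and the lowest for Slc22a6 (15310). Other watered males stood apart once each: male 6 was lowest for Slc22a13 (1846), and males 1, 4 and 2 were highest for Slc22a8 (10040), Wdr86 (108.1) and Ptges (850). Watered female 1 was lowest for Slc6a12 (68.67) and watered female 2 highest for Slc22a6 (9926).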

How the results depend on the processing

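Counts of genes with a called interaction, above and below, were 18 and 12 with DESeq2, 7 and 2 with weights per library, 7 and 2 without the 4 libraries, 3 and 1 with the unnamed gene's level as covariate, and, chosen after seeing the data, 6 and 4 with edgeR without the 4 libraries and 4 and 2 without deprived males 6 and 7. Leaving out 1 library gave 0 to 2 above and 0 to 1 below. The settings not listed gave 0. List members called were 8 with DESeq2, 3 with weights, 2 without the 4 libraries, 2 with edgeR without them, 1 without deprived males 6 and 7, and 0 to 1 without 1 library.

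Female calls (136) became 358 with DESeq2, 980 with weights, 726 without the 4 libraries, 907 with edgeR without them, 362 without deprived males 6 and 7, 227 with the unnamed gene, 18 with the cortex to medulla balance and 6 with the stroma level as a covariate, 2 with deprived female 5 counted as watered, and 65 to 212 without 1 library. Male calls (40) became 155 with DESeq2, 131 with weights, 142 without the 4 libraries, 105 with edgeR without them and 22 to 65 without 1 library. Genes differing between deprived males and females numbered 553 with the cortex to medulla balance and 1715 with the stroma level, and between watered males and females 759 with the balance. The balance and the stroma level contain genes that themselves differ with sex or water. Groups were smaller where libraries were left out, and the causes of these changes were not tested.

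Replicate numbers, taken from the titles, gave no sign of a pairing. In 33 same-numbered pairs the correlation of deviations was -0.17 to 0.45 (median 0.03), and 5 of 24 libraries were closest to their own number. The library codes number some deprived females differently from the titles, and a pairing by code was not tested. With the replicate block the male count was 64, the sodium transport median 0.0698 (-0.02 without it), and 0 interactions were called.

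Medians moved for sodium transport to 0.072 with the unnamed gene, 0.094 with the stroma level and 0.0783 without deprived males 6 and 7. With the stroma level they were 0.0959 for the distal convoluted tubule, 0.0022 for podocytes and 0.0627 for endothelium. The stroma median was then -0.0321, from the same genes that make up the covariate. That of perirenal fat was 1.945, with 4 of its 9 markers at 0 in some library. The unfolded protein response median was -0.18 with deprived female 5 as watered, podocytes had -0.0186 without deprived males 6 and 7, and with a mean of at least 50 stroma had -0.46 and lymphocytes -1.04.

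Signs reversed for the Per3 interaction, -0.0854 with deprived female 5 as watered and -0.0622 to 0.0789 without 1 library. In deprived mice with the stroma level they reversed for the sex gap of Col3a1 (0.0358), Col1a2 (0.0455) and Col1a1 (0.19). With the cortex to medulla balance they reversed for Aqp2 (0.17) and Acaa1b (0.0077) in watered and Hsd11b2 (0.0128) in deprived mice. The stroma level contains those collagens and the balance contains Aqp2 and Hsd11b2, so these genes were adjusted in part for themselves. For Acaa1b the cause was not tested. Over 75 named genes, 8498 values kept direction and side of the threshold, 457 lost a call, 52 gained one and 16 reversed. Depth limits low genes such as Grem1.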

Other observations

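An unnamed gene model, 1700034H15Rik, was chosen after its values were seen: its interaction was called in 6 of the 19 settings that did not leave out a single library, among them DESeq2 (1.17, DESeq2 adjusted p = 0.0069) and weights per library (1.11, limma adjusted p = 0.0251), and in 0 of the fits without 1 library. Cyp2c23 and Frzb were called in 6 of the 19 as well, Nr1d1 in 5, and Dgat2 and Slc22a13 in 4. In all, 37 genes were called in at least 1 setting.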
